A study of Mus musculus with 12 samples.

Results

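A set of 712 CREB binding sites was called in re-fed mouse liver and not in fasted liver. These re-fed-only sites were selected on measured values: their names stand in the final re-fed peak list (5357 sites) and are absent from the final fasted list (6835 sites). They made up 9.43% of the 7547 sites left after both lists were merged (95% Wilson interval 8.80% to 10.1%) and 13.3% of the re-fed list. The other merged sites were called only in fasted liver (2190 sites) or in both conditions (4645 shared sites).

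The lists came from CREB ChIP-seq on the livers of 10 mice, 5 per condition, made with an antibody that binds CREB whether or not it is phosphorylated. All were male C57BL/6J mice of 8 to 12 weeks (strain label C57/Bl6) that had gone without food for 24 h. The fasted group was killed at Zeitgeber time 3, and the re-fed group after 2 h of renewed feeding at Zeitgeber time 5, so feeding and time of day cannot be told apart. The tissue was whole liver, with its mixture of cell types, and reads of the 5 livers of a condition were pooled before sites were called. The lists therefore give 1 value per site with no spread between mice, the study's own heights per mouse were not used here, and the shares and medians are descriptions with no test.

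CREB, the cAMP response element binding protein, is a bZIP transcription factor that binds as a dimer to the palindromic cAMP response element (CRE) or to a half-CRE. In fasting, glucagon raises cAMP in hepatocytes and protein kinase A phosphorylates CREB, which then recruits coactivators to genes of gluconeogenesis and amino acid breakdown. Re-feeding raises insulin, lowers cAMP signalling and favours glycogen and lipid synthesis.

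Promoters under re-fed-only sites are shown first, since position and letters did not enter the choice of the sites. On chromosomes 1 to 3, for which the mm8 gene starts at hand were complete, 46 re-fed-only sites were centred between 250 bp upstream and 50 bp downstream of a gene start. For 31 of them the gene matched by symbol to a single RefSeq promoter (GRCm38.p6). The 250 bases before the start are printed for the 8 highest-ranked of these, 5′ to 3′, with any half-CRE (TGACG, or CGTCA on the other strand) in capitals. Coordinates of the lines are GRCm38.p6.
Ciao1, chr2:127247817-127248066, minus strand: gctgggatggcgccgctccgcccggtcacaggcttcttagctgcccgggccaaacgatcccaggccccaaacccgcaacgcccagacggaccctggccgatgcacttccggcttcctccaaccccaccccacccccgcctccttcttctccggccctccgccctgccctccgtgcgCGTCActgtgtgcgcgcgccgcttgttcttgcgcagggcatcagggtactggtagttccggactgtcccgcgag
Bcs1l, chr1:74588039-74588288, plus strand: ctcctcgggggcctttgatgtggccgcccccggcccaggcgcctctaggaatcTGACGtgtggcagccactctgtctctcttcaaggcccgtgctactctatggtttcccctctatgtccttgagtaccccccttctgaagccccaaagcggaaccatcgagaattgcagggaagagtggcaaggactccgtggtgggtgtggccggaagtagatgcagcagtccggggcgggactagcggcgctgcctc
Gorasp2, chr2:70661259-70661508, plus strand: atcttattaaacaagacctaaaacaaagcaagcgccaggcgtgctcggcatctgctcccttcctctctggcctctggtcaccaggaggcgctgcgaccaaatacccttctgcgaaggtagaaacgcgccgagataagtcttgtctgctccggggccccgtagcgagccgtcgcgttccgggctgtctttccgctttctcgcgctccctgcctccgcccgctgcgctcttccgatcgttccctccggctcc
Dusp10, chr1:184034131-184034380, plus strand: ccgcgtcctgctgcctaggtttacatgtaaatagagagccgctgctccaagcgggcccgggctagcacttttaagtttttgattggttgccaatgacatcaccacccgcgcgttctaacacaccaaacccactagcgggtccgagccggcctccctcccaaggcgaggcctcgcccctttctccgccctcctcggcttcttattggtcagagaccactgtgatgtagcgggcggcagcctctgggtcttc
Serf2, chr2:121448948-121449197, plus strand: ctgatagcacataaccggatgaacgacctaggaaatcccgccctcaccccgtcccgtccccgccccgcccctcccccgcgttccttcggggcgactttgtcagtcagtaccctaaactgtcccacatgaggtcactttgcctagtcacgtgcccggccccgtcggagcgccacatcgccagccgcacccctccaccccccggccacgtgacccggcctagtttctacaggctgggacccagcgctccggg
Rc3h1, chr1:160906161-160906410, plus strand: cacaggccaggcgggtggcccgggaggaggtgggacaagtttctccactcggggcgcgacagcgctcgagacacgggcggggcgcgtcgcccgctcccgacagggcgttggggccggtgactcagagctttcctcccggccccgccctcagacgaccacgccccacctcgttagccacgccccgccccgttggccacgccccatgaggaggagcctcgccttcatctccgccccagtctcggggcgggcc
Fbxo18 (Fbh1 in RefSeq), chr2:11777586-11777835, minus strand: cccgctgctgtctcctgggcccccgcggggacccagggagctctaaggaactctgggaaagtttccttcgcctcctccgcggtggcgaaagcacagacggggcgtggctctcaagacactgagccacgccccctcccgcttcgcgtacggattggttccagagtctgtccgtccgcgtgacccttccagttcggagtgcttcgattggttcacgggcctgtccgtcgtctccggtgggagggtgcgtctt
Usp20, chr2:30982029-30982278, plus strand: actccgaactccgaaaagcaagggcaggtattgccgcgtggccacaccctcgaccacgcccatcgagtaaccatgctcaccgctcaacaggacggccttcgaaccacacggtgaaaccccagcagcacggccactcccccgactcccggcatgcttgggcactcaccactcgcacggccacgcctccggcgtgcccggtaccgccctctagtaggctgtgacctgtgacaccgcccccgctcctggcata

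A half-CRE stood in 2 of these 8 stretches. It lay in the promoter of Ciao1, a component of cytosolic iron-sulfur protein assembly, with its middle base 72 bp before the start, and in that of Bcs1l, an assembly factor of respiratory complex III, 195 bp before the start. Neither was under the centre of the site, which was 110 bp from the half-CRE in Ciao1 and 129 bp in Bcs1l. In Gorasp2, a Golgi stacking protein, and Usp20, a deubiquitinase, the half-CRE lay just past the start, 53 bp and 13 bp from the centre. The promoters of Dusp10, a phosphatase of p38 and JNK kinases, Serf2, Rc3h1, an RNA-binding repressor of immune transcripts, and Fbxo18, a DNA helicase, held none in their 300 bases. The starts of both builds may differ, so these distances compare positions relative to the start of each annotation.

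The full palindromic CRE (TGACGTCA) stood in 2 of the 31 promoters. Both are printed below in the same way, and were chosen after their letters were seen.
Cnnm4, chr1:36471347-36471596, plus strand: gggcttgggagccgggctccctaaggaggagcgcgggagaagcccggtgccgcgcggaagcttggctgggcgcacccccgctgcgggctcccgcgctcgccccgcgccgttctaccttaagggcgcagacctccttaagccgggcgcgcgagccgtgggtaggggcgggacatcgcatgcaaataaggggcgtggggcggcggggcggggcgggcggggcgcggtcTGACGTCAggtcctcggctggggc
Baz2b, chr2:60125741-60125990, minus strand: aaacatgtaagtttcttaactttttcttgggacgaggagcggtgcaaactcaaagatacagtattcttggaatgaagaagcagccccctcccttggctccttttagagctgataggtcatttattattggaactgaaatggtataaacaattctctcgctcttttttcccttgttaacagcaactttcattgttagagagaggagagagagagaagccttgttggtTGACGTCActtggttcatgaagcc

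The Cnnm4 promoter, of a magnesium transporter, and the Baz2b promoter, of a bromodomain chromatin protein, carried the octamer at the same distance before the start, with the middle bases of its half-CREs 22 bp and 19 bp upstream. The sites over them were weak in fasted liver, with 17 reads at Cnnm4 (chr1:36416130-36416238 in mm8) and 13 reads at Baz2b (chr2:59926560-59926668 in mm8). Their centres lay 61 bp and 13 bp from the octamer's nearer half-CRE.

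Over all 31 promoters, 12 held a half-CRE in their 300 bases (38.7%, Wilson interval 23.7% to 56.2%). The share was 29.8% of 131 promoters under fasted-only sites (22.6% to 38.1%), 71.5% of 354 under shared sites (66.6% to 75.9%) and 20.6% of all 22862 genes with a single promoter. The interval of the re-fed-only promoters overlapped that of the fasted-only promoters and lay below that of the shared ones. Its lower bound lay above the share of all promoters. Shared sites also ranked higher by average height (median rank 2391 against 6033), and these shares were not split by rank. Base composition was not matched either. GC made up 61% to 73% of the 300 bases in the 8 highest-ranked promoters printed, against a median of 52.3% over all promoters. A part of rank or base composition in these differences was not tested. An octamer with at most 1 mismatch stood in 5 of the 31 (16.1%, 7.09% to 32.6%), in 7.63% of the fasted-only, 31.1% of the shared and 13.1% of all promoters. The exact octamer stood in 6.45% of the re-fed-only promoters (1.79% to 20.7%), in 9.60% of the shared, in 0 of the 131 fasted-only (interval up to 2.85%) and in 1.85% of all. Where a half-CRE was present, it lay within 54 bp of the centre, thus inside a call, in 7 of 12 cases at re-fed-only sites, against 32 of 39 at fasted-only and 221 of 253 at shared sites. Both strands were searched, a full CRE holds a half-CRE on each strand, and a match of letters does not show that the site was bound there.

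Re-fed-only sites were weak in the fasted pool. Heights, the largest stack of reads in a site scaled to the reads of the pool (RPM), were those of the fasted pool in both lists, so re-fed heights were not used here. They were whole multiples of 0.0236 RPM, taken as the worth of 1 read, which corresponds to a pool of 42363292 reads. The study's read totals make the re-fed pool the deeper one, so depth and feeding cannot be told apart in calls made in a single pool. The re-fed-only sites had a median fasted height of 0.401 RPM or 17 reads, with quartiles of 0.354 and 0.496 RPM, and ranged from 7 to 161 reads. The median was 0.567 RPM (24 reads) at fasted-only sites and 0.991 RPM (42 reads) at shared sites. These heights belong to the calls that chose the sites. A read count of 17 has a counting standard deviation of 4.12 reads, and intervals of reads given below are Poisson intervals at 95% that cover counting error only, as reads were not tagged as single molecules. A height is the largest stack in a site and not a plain count, so these intervals are approximate. The Wilson intervals of shares treat sites as independent and do not cover differences between mice.

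The heights of both 1-condition classes overlapped. The lowest fasted-only site had 16 reads (0.378 RPM), and 491 of the 712 re-fed-only sites (69.0%, 65.5% to 72.2%) stood at or above it without a fasted call, 118 of them at or above the fasted-only median. Another 221 were below it, and 88 were below the lowest site of the whole fasted list at 14 reads (0.330 RPM). Only 20 re-fed-only sites exceeded 1 RPM.

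The number in a site's name ranks the merged sites by the average of fasted and re-fed height, 1 being the highest. Re-fed-only sites ran from rank 265 to rank 7533, with a median of 6033. Their share rose down the ranking, from 0.600% of ranks 1 to 1000 (6 sites, 0.275% to 1.30%) to 5.40% of ranks 3001 to 4000, 11.7% of ranks 4001 to 5000, 13.6% of ranks 5001 to 6000 and 23.5% of ranks 6001 to 7547 (363 sites, 21.4% to 25.6%). In the first 2000 ranks they were about as frequent as fasted-only sites (6 and 13 against 8 and 17), whereas in the last bin fasted-only sites made up 62.8%. Of the 712 sites, 81 stood in the stronger and 631 in the weaker part of the ranking when it was cut in the middle.

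**Figure D1:**
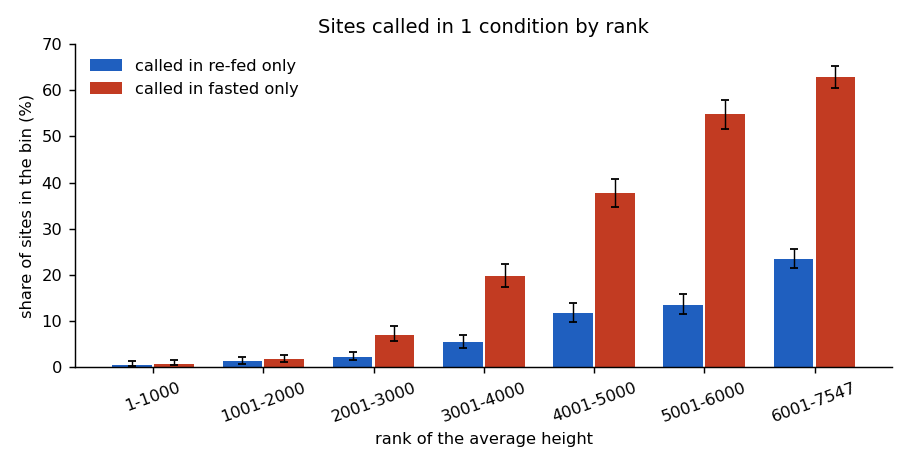
Share of sites called in re-fed liver only and in fasted liver only (%) in bins of the rank of the average height, with 95% Wilson intervals as error bars. The re-fed-only share rises from 0.600% in the first bin to 23.5% in the last, where fasted-only sites reach 62.8%.

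At like rank, re-fed-only sites were lower in the fasted pool than shared sites. Against the median of the shared sites within 50 ranks on either side, the median difference was 0.0708 RPM or 3 reads, with quartiles of 0.0472 and 0.118 RPM. Of 685 sites with at least 5 shared sites in that window, 573 (83.6%) were lower, 64 equal and 48 higher. Fasted-only sites stood higher than shared sites by the same 3 reads, and 143 of 2135 (6.70%) were lower. Since equal averages with a lower fasted height entail a higher re-fed height, this is the direction the calls select. For 677 of the 685 sites the shared median lay inside the counting interval of the site's own reads, and for 8 it lay above. These intervals concern single sites and do not bear on the direction that the 573 had in common.

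**Figure D2:**
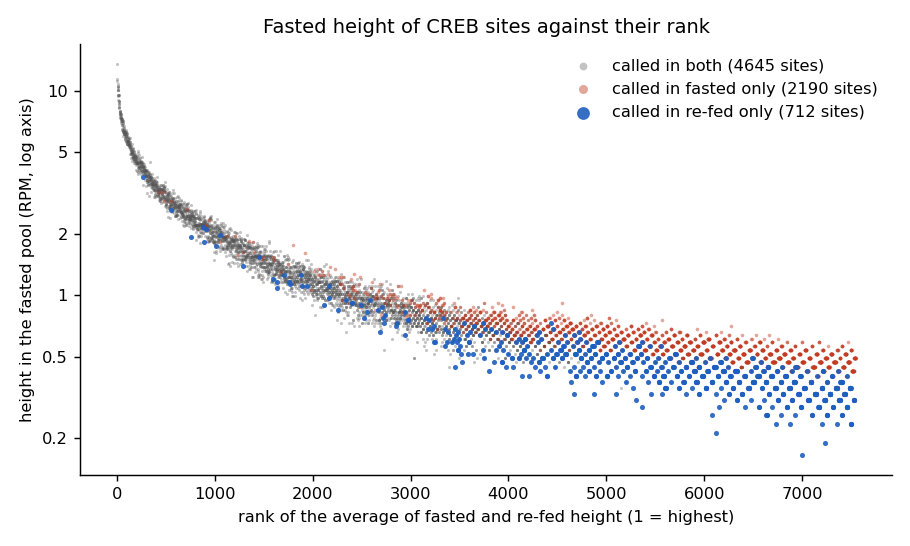
Height in the fasted pool (RPM, log axis) of each merged site against its rank by average height, in blue for re-fed-only, red for fasted-only and grey for shared sites. Blue points lie along the lower edge of the cloud from rank 265 to rank 7533, down to 0.165 RPM.

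A least re-fed height followed for some sites if the ranked average is that of the heights in both pools. The study's methods describe heights averaged over livers, so the limits below rest on that reading. An average cannot be lower than that of a site ranked below it, and the authors kept averages above 0.35 RPM, which is 14.8 reads of the fasted pool. With both limits the height in the re-fed pool had to be above that in the fasted pool at 161 re-fed-only sites (22.6%), 146 of which were below 0.35 RPM in the fasted pool. It had to be so at 9 of the 4645 shared sites and 0 of the 2190 fasted-only sites, a contrast that the calls largely fix, since no fasted-only site was below 0.35 RPM. For the other 551 re-fed-only sites these limits did not fix the direction.

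Among the 10 highest-ranked re-fed-only sites, 9 had no other site within 1000 bp, as did 549 of all 712 (77.1%), and 3 lay on the sex chromosomes, which held 12 of the 712 (1.69%). The highest, at chr4:146748469-146748577 (mm8, as all site coordinates), had 161 reads or 3.80 RPM in the fasted pool (interval 137 to 188 reads) at rank 265, which was 0.307 RPM below the shared sites of like rank. The next, at chr2:120300769-120300877, had 111 reads (91.3 to 134) and was centred 24 bp upstream of the nearest of the gene starts of Lrrc57 and Haus2, a subunit of the augmin complex of the mitotic spindle. The site at chrY:1294105-1294213 had 82 reads, and those at chrX:120303143-120303251 and chrX:119762857-119762965 had 77 and 59 reads. These 3 were 0.449, 0.354 and 0.260 RPM below the shared sites of like rank, the wider gaps of the 10 along with the first. The site of Pnrc1, a nuclear receptor coactivator, at chr4:33576248-33576356 had 91 reads (73.3 to 112) and differed by 0.0472 RPM. The remaining 4 had 89 reads (chr15:101074334-101074442), 84 reads (chr5:87247362-87247470), 74 reads (chr11:118106460-118106568, in Usp36) and 65 reads (chr15:76339160-76339268). All 10 were thus well above the 16 reads of the lowest fasted-only site.

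At the other end, 10 re-fed-only sites had 10 fasted reads or fewer. The lowest, at chr7:126486507-126486615 near Slx1b, a subunit of a structure-specific DNA nuclease, and Bola2, which acts in iron-sulfur cluster handling, had 7 reads (2.81 to 14.4). By the limits given above, its re-fed height was at least 0.535 RPM, or at least 3.24 times its fasted height. This bounds the ratio of the largest stacks in the pools and not a ratio of reads counted over the site. The sites at chr4:123474851-123474959 with 8 reads and chr6:113385120-113385228 with 9 reads followed, at no less than 2.71 and 2.33 times. No other re-fed-only site had a least ratio of 2 or more. The other 7 had 10 reads (4.80 to 18.4) and a least ratio of 1.97. They were the sites at chr1:123176573-123176681, chr9:120450633-120450741, chr7:132542026-132542134 and chr3:138198268-138198376 and those of Baz2b, of Brca1, a DNA repair factor, and of Dusp6, a phosphatase of ERK kinases. The interval of 7 reads and those of 8 to 10 reads overlapped.

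Of the 12 sites listed as differential between fasted and re-fed liver, 3 were re-fed-only (25%, 8.89% to 53.2%), and the interval held the 9.43% of all sites. By the study's fold changes most of the 12 were higher in fasted liver, and these 3 were higher in re-fed liver. The share over all 12 mixes both directions, so it does not tell how often sites higher in re-fed liver were re-fed-only. That list was drawn from the same libraries and is not independent of these calls. Besides the site at Slx1b and Bola2, the re-fed-only ones were at Tnfaip1 and Ift20, a subunit of the intraflagellar transport complex, and at Zfp395, a zinc finger protein. The first of these (chr11:78352445-78352553) had 19 reads (11.4 to 29.7) and a re-fed height of at least 0.519 RPM. The site at Zfp395 (chr14:64334718-64334826) had 14 reads (7.65 to 23.5) and at least 0.425 RPM. The site at Ift20 had a fasted-only site of 25 reads 159 bp away.

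A number of re-fed-only sites lay beside a fasted site. Fasted-only sites were all 111 bp wide and re-fed-only sites all 109 bp, while shared sites spanned 111 to 219 bp, with a median of 122 bp. If both calls kept their widths, the centres of the calls merged into a shared site were at most 109 bp apart, with a median of 12 bp, and calls 110 bp apart no longer touched. The number of shared sites fell to 23 at 90 to 99 bp and 9 at 100 to 109 bp. Just past this limit, 14 re-fed-only sites had a fasted-only site at 110 to 119 bp and 6 at 120 to 129 bp. The closest, at chr4:125971050-125971158 in Eif2c1, an Argonaute gene, and at chr2:11695364-11695472 at Fbxo18 and Ankrd16, were 110 bp from theirs, with 18 against 25 and 27 against 35 fasted reads. The widest shared sites, at chr7:18540341-18540559 and chr19:12863190-12863406, had calls 109 and 107 bp apart and 29 and 30 reads. The 5 re-fed-only sites just past the limit had 15 to 27 fasted reads and the 5 widest shared sites 22 to 38, so the ranges overlapped in part.

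**Figure D3:**
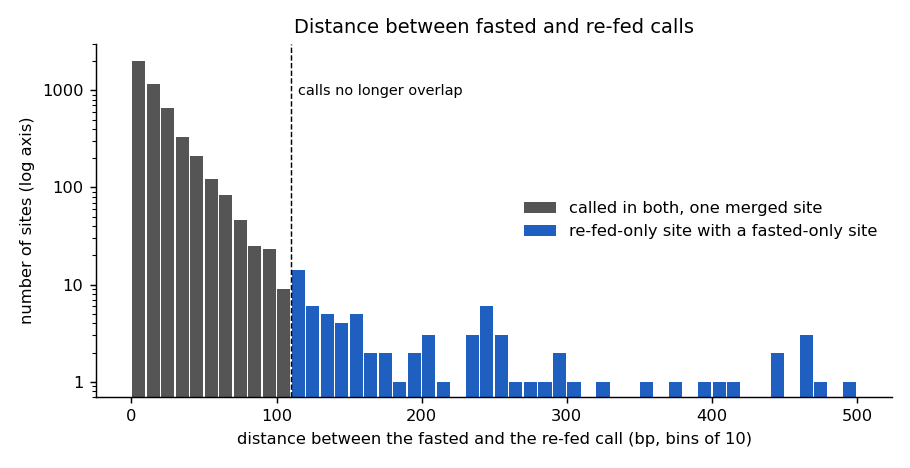
Number of sites (log axis) by the distance between the centres of a fasted and a re-fed call, in bins of 10 bp, grey where the calls were merged into a shared site and blue where a re-fed-only site had a fasted-only site as neighbour. The dashed line marks 110 bp, where calls stop overlapping, with 9 shared sites in the last bin before it and 14 re-fed-only sites in the first bin after it.

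In all, 41 re-fed-only sites had a fasted-only site within 200 bp and 77 within 500 bp. Each of the 77 was lower in the fasted pool than its fasted-only neighbour, with medians of 0.449 and 0.614 RPM, a direction that the choice of a called and an uncalled neighbour in the same pool largely fixes. In 30 of the 77 pairs (39.0%, 28.8% to 50.1%) the re-fed-only site nevertheless ranked higher by average, so its re-fed height exceeded that of the neighbour, by at least 0.0236 to 0.283 RPM with a median of 0.106 RPM. For the other 47 pairs the order of the re-fed heights was not fixed. In Usp36, a nucleolar deubiquitinase, the re-fed-only site with 74 fasted reads ranked 1009 and the fasted-only site 113 bp away, with 83 reads, ranked 1123. Its re-fed height was therefore at least 0.212 RPM above that of the neighbour. In Tcf3, a bHLH transcription factor (chr10:79837029-79837137), the reads were 34 and 35 at a distance of 203 bp, and the re-fed-only site again ranked higher. In Thrap3, a splicing-associated protein (chr4:125705122-125705230), the reads were 47 and 56 at 121 bp, and the fasted-only site ranked higher. At Creb3l3, which encodes a liver bZIP factor of the endoplasmic reticulum membrane (chr10:80495854-80495962), they were 13 and 22 at 140 bp. At Klf7, a Krüppel-like factor (chr1:64055890-64055998), they were 21 and 23 at 119 bp. Over all 77 pairs, the reads of the fasted-only site lay inside the counting interval of the re-fed-only site in 59 (76.6%), these 5 included, and above it in 18. A gene name was at hand for 36 pairs, of which 28 were of the first kind and 8 of the second. The 8 included Clk1, a kinase of splicing factors, with 19 against 46 reads, and Rab33b, a small GTPase, with 33 against 52 reads, and were otherwise at Snrpd1, Etnk2, Plekhh3, Sec14l4, Lrrc41 with Uqcrh, and Cdk2ap2.

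A shared site lay within 500 bp of 50 re-fed-only sites, 2 of which are also among the 77, and 48 of the 50 were lower than it, with medians of 0.508 and 1.10 RPM. Within 1000 bp, 163 of the 712 re-fed-only sites (22.9%, 20.0% to 26.1%) had some other site, against 16.6% of the fasted-only (15.1% to 18.2%) and 11.0% of the shared sites (10.1% to 11.9%). The list itself limited these distances, since no sites of the fasted list were closer than 217 bp and none of the re-fed list closer than 266 bp, so nearer neighbours could come only from opposite lists. When only sites of the re-fed list counted as neighbours, a comparison added after the data were seen, the share was 11.7% for re-fed-only (9.50% to 14.2%) and 7.19% for shared sites (6.48% to 7.97%). Counted in the same way against the fasted list, it was 13.1% for fasted-only (11.7% to 14.5%) and 9.64% for shared sites (8.83% to 10.5%). The fasted list was the longer, with 6835 against 5357 sites, so shares against different lists are not compared. Most re-fed-only sites stood apart from fasted calls, with 587 (82.4%) having no site of the fasted list within 500 bp. Their median fasted height was 0.401 RPM, against 0.472 RPM for the other 125.

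Over all ranks, re-fed-only sites were less concentrated at gene starts than shared sites. Of the 112 on chromosomes 1 to 3, 62 (55.4%, 46.1% to 64.2%) were centred from 2000 bp upstream to 200 bp downstream of a start, against 62.4% of 383 fasted-only (57.5% to 67.1%) and 73.0% of 797 shared sites (69.8% to 76.0%). Another 28 lay elsewhere in a gene or up to 10 kb upstream, and 22 (19.6%) lay outside both, against 14.4% of fasted-only and 9.79% of shared sites. The interval overlapped that of the fasted-only sites and not that of the shared sites. Rank moved with this difference. Among sites of the weaker part of the ranking, also a comparison added after the data were seen, the promoter share was 52.0% for re-fed-only (42.4% to 61.4%), 62.3% for fasted-only (57.2% to 67.2%) and 61.7% for shared sites (54.9% to 68.0%), with overlapping intervals. In the stronger part, 9 of 10 re-fed-only sites were in a promoter (59.6% to 98.2%). There the share was 63.3% of 30 fasted-only (45.5% to 78.1%) and 77.0% of 591 shared sites (73.4% to 80.2%). The re-fed-only share was thus the highest in that part, with an interval that overlapped both others. Fasted height differed little with position, with medians of 0.401 RPM in promoters and elsewhere in genes and 0.378 RPM outside both. Of the re-fed-only sites without a fasted-list site within 500 bp, 48 of 93 were in promoters (51.6%, 41.6% to 61.5%), and of the others 14 of 19 (73.7%, 51.2% to 88.2%).

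**Figure D4:**
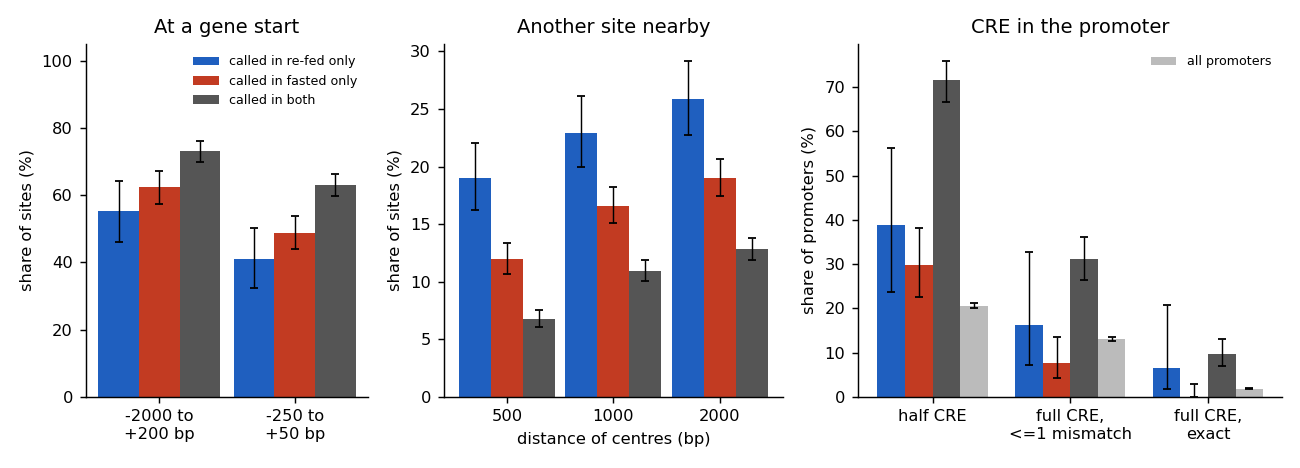
Shares (%) with 95% Wilson intervals for re-fed-only (blue), fasted-only (red) and shared sites (grey): sites of chromosomes 1 to 3 at a gene start, sites with another site nearby by distance between centres (bp), and promoters with a CRE, beside all promoters (light grey). Re-fed-only sites have a promoter share of 55.4% against 73.0% for shared sites, a neighbour within 1000 bp in 22.9% against 11.0%, and a half-CRE in 38.7% of promoters against 71.5%. These shares are not matched for rank.

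On these chromosomes 118 of 1238 CREB-bound genes held a re-fed-only site within the gene or up to 10 kb upstream. For 69 of them it was the sole kind of CREB site, 26 also held a shared site, and 23 held a fasted-only but no shared site. Genes with more than 1 re-fed-only site numbered 3. They were 2310003F16Rik, Baz2b and Tns1, which encodes a focal adhesion protein, each with 2 such sites.

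Sites at genes regulated by fasting were re-fed-only about as often as all merged sites. The gene lists are the study's own, from expression arrays of livers of the same experiment. Of 287 merged sites at fasting-induced genes, 32 were re-fed-only (11.1%, 8.01% to 15.3%), and of 323 sites at fasting-repressed genes 29 (8.98%, 6.32% to 12.6%). Both intervals held the 9.43% of all merged sites.

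The 32 sites belonged to 28 induced genes, with a median of 0.425 RPM and a range of 10 to 91 fasted reads. For 8 of the genes re-fed-only sites were the sole kind, and 13 had a shared site as well. Pnrc1, given above, had the highest-ranked one and no other site. The long noncoding locus 1700056E22Rik beside Dusp10 had 29 reads (19.4 to 41.6) at chr1:185735582-185735690. The stress-responsive polo-like kinase gene Plk3 had 20 reads (12.2 to 30.9) at chr4:116633969-116634077, 0.236 RPM below the shared sites of like rank, and a shared site of 36 reads 2042 bp away. Polg2, the accessory subunit of the mitochondrial DNA polymerase, had 23 reads and sites of every class. Klf9, a glucocorticoid-responsive Krüppel-like factor, also had 23 reads (14.6 to 34.5), 378 bp from a shared site of 60 reads. Wrnip1, an ATPase that interacts with the Werner helicase, had 26 reads and no other site. Cyth1, an exchange factor of Arf GTPases, had 2 re-fed-only sites with 23 and 18 reads, 37700 bp apart, and no other. Trp53inp1, a p53 target with a role in autophagy, had 26 and 16 reads at sites 722 bp apart.

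The other 20 induced genes had 22 re-fed-only sites at ranks from 4702 to 7359, with 10 to 25 reads. In order of rank they were Slc25a25, Egr1, Eif1, Cabc1, Etnk2, Dennd4a, Lpin2, Mknk2, Gadd45g, Slc38a2, Enc1, Brap, Arrdc4, Irs2, Rnf103, Baz2b, Arsg, Fam59a, Crcp and Got1. Of these, Irs2 and Slc25a25 are on the pathway lists, and Lpin2, Got1 and Gadd45g were chosen as examples after their values were seen. Irs2, the insulin receptor substrate of hepatocytes, had 16 reads (9.15 to 26.0) at chr8:11009891-11009999, 340 bp from a shared site of 37 reads, and a fasted-only site of 30 reads. Slc25a25, a mitochondrial carrier of ATP-Mg and phosphate, had 25 reads at chr2:32245568-32245676, 595 bp from a shared site of 68 reads. Lpin2, a phosphatidate phosphatase, had 13 reads and no other site, and a re-fed height of at least 0.449 RPM against 0.307 RPM fasted. Got1, the cytosolic aspartate aminotransferase, had 11 reads and at least 0.440 RPM against 0.260 RPM. Gadd45g, a growth arrest gene, had 2 re-fed-only sites of 17 and 15 reads, the weaker one 137 bp from a fasted-only site of 20 reads.

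The 29 sites at repressed genes belonged to 29 genes, with a median of 0.401 RPM and a range of 10 to 53 fasted reads. For 12 genes they were the sole kind of site, and 9 genes had a shared site too. Slc35b1, a transporter of the endoplasmic reticulum (ER) membrane, had 53 reads (39.7 to 69.3) at chr11:95200935-95201043, 278 bp from a shared site of 92 reads. Cdc34, a ubiquitin-conjugating enzyme, had 38 reads (26.9 to 52.2) at chr10:79084825-79084933 and no other site. Serf2 had 31 reads at chr2:121140457-121140565, 282 bp from a shared site of 38 reads, and stood 0.0236 RPM above the shared sites of like rank. Calr, a calcium-binding chaperone, had 26 reads (17.0 to 38.1) at chr8:87736944-87737052 and no other site assigned to it. A shared site of 82 reads lay 6080.5 bp away. Srprb, a subunit of the signal recognition particle receptor, had 22 reads at chr9:103066131-103066239 and a fasted-only site 5910 bp away.

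Snrpd1, a core protein of spliceosomal snRNPs, had 19 reads on chromosome 18, 203 bp from a fasted-only site of 32 reads. Tfg, an organiser of ER exit sites, had 21 reads at chr16:56642396-56642504, 145 bp from a fasted-only site of 27 reads. H2afx, the histone variant of the DNA damage response, had 21 reads at chr9:44077467-44077575. The other 21 repressed genes had 1 re-fed-only site each, at ranks from 4391 to 7500, with 10 to 22 reads. In order of rank they were Rbm14, Chordc1, Rcan1, Tmem41b, Lsm3, B4galt5, Sel1l3, Xpo1, Bhlhe40, Mlx, Wwc1, Mogs, Srm, Cish, Manf, Pols, Bcl3, Fam102a, Zfp322a, Cdk2ap2 and Dusp6. Manf, a secreted ER stress factor, and Dusp6 had 12 and 10 reads and re-fed heights of at least 0.417 and 0.464 RPM.

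**Figure D5:**
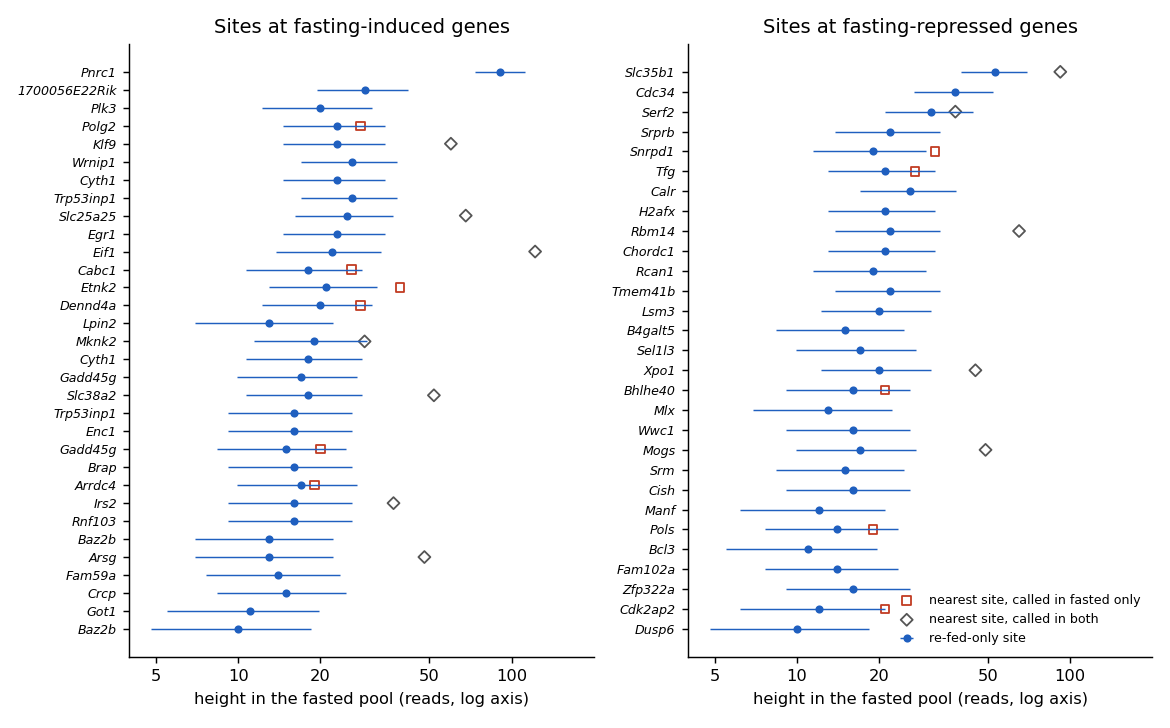
Height in the fasted pool (reads, log axis) of the re-fed-only sites at fasting-induced (left) and fasting-repressed genes (right), ordered by rank, with 95% Poisson intervals as bars. Open symbols show the nearest site where it lay within 1000 bp and was fasted-only (red squares) or shared (grey diamonds), and these lie to the right of the re-fed-only site of the same gene.

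At the genes of 7 pathway lists, 11 of 102 sites were re-fed-only (10.8%, 6.13% to 18.3%), beside 9.43% of all sites. Counted by gene, 10 of 71 with a site had a re-fed-only one (14.1%, 7.83% to 24.0%), beside 118 of the 1238 bound genes of chromosomes 1 to 3. Counts by gene are not to be read against the share of sites. Gene names were complete for chromosomes 1, 2, 3, 10 and 11 and elsewhere came from the regulated genes, so counts cover only genes with a site in the tables used. Of the ER chaperone genes, 3 of 16 with a site had a re-fed-only one (3 of 18 sites, 5.84% to 39.2%). Canx, a lectin chaperone of the ER membrane, had 37 reads (26.1 to 51.0) at chr11:50169078-50169186, and Calr and Manf are given above. None of the 3 had a site of another class assigned to it in these tables. Stronger shared sites, not assigned to these genes, lay 6080.5 bp from the site of Calr (82 reads) and 4929 bp from that of Manf (90 reads). Of the lipid synthesis genes 2 of 12 did. Acly, which makes cytosolic acetyl-CoA from citrate, had sites of 16 and 19 reads at chr11:100331188-100331296 and chr11:100344000-100344108. Acaca, which carboxylates acetyl-CoA to malonyl-CoA, had 16 reads (9.15 to 26.0) at chr11:84035094-84035202. These enzymes of fatty acid synthesis likewise had only re-fed-only sites in the tables, at ranks from 6510 to 6923.

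For insulin signalling, 2 of 7 genes had one, Irs2 and Foxo3, a forkhead factor under Akt control, with 12 reads (6.20 to 21.0) at chr10:41914051-41914159 and, farther than 10 kb off, a shared site of 93 reads and a fasted-only site of 45 reads. For the circadian clock, 2 of 7 genes did. Bhlhe40, a repressor of the clock, had 16 reads, 113 bp from a fasted-only site of 21 reads, and Hlf, a PAR bZIP factor, had 14 reads and, also farther than 10 kb off, a shared site of 95 reads. Of the genes of gluconeogenesis and its regulators 1 of 8 did, Slc25a25. The CREB pathway (10 genes, 14 sites) and the proteasome (11 genes, 11 sites) had none, with intervals of the share up to 21.5% and 25.9%. In none of the 7 lists did the interval of the re-fed-only share of sites leave out 9.43%.

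Re-fed-only sites were found on all 21 chromosomes. Their share of a chromosome's sites ran from 6.29% on chromosome 3 (20 of 318) to 13.3% on chromosome 19 (39 of 293, 9.89% to 17.7%). The Wilson interval left out 9.43% on 4 chromosomes, above it on chromosomes 10 (12.7%, 9.81% to 16.3%) and 19 and below it on chromosomes 8 (6.51%) and 17 (6.44%). On chromosome X it was 9.02% (11 of 122), and on chromosome Y 1 of 11 sites was re-fed-only.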

How the data were processed

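The deposited peak lists hold the position of each site, its name and its height in RPM. Per the study's methods, the authors mapped reads to mm8 with Eland, removed redundant reads in each library, pooled 5 livers per condition, called peaks with HOMER (version 3.0 in the submitters' processing notes) at 5% FDR against pooled inputs, and kept peaks found in every pool of 4 livers and with an average height above 0.35 RPM. Reads were extended to 108 bp. Overlapping fasted and re-fed peaks were merged and named by the authors. Only calls on pooled livers were used, so depth per library is not given here. The GR and CEBPB libraries of ad libitum fed mice were not analysed here.

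Sites were classed by name. Members and gene lists were chosen with earlier results of these data known. Gene names, mm8 starts and the lists of regulated and differential genes came from the study's tables, which were held in part, and no value was taken from them. Named were the 10 highest-ranked and the 10 lowest re-fed-only sites, differential ones and those at listed or fasting-regulated genes (reads for the 8 highest-ranked genes of each). Of sites within 500 bp of a fasted-only site, examples are named. Intervals are Wilson (shares) and Poisson (reads) at 95%. Promoters were matched by symbol to RefSeq (GRCm38.p6, 32851 sequences of 300 bases). Alternatives covered overlap rule, site strength, chromosomes, distances, windows and motif. Functions were tested on simulated data. Python 3.11.15, numpy 2.4.6, pandas 2.3.3 and scipy 1.17.1 were used.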

Additional observations from a re-analysis of the deposited data

How the results depend on the processing

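No paired analysis was possible because the lists were called on pooled livers and carry no value of a single mouse (the study's own heights per mouse were not used here), and no mouse was left out. An overlap of at least 1 bp and autosomes alone left the re-fed-only share at 9.43% and 9.44%. Counting centres within 500 bp as shared gave 7.78%. Sites at or above the median fasted height gave 1.29%, a fall that the choice of sites without a fasted call largely fixes. The stronger part of the ranking gave 2.15%. In that part the median fasted height was 0.732 RPM and the difference to shared sites of like rank 0.0944 RPM. Windows of 25 or 100 ranks kept that difference at 0.0708 RPM. The share with a neighbour was 19.0% within 500 bp and, with neighbours chosen after seeing the data, 9.41% for shared sites alone and 11.7% for sites of the re-fed list. The promoter share was 41.1% from 250 bp upstream to 50 bp downstream of a start, and the motif share 16.1% for the octamer with at most 1 mismatch and 6.45% for the exact octamer. RefSeq transcripts alone gave 10.7% at induced and 9.03% at repressed genes. Depth limits single sites, since a count of 17 reads has an error of 4.12 reads.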
